A study of Mus musculus with 17 samples.

Results

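The genes described here are 8 secreted factors through which marrow endothelium supports blood formation and the mural cells of its own vessels: Kitl, Cxcl12, Csf1, Il6, Il7, Ptn, Mdk and Pdgfb. They were chosen by name, with earlier results of these data known, from the 49585 Ensembl identifiers that each count table holds, and all 8 identifiers were found in every table. The 17 libraries came from endothelial cells of mouse long bones, sorted for CD31 and Sca1 on the surface and for the absence of the blood markers CD45 and Ter119, and made with SmartSeq2, a full-length method without molecular identifiers. Wild-type (WT) mice were compared with mice (KO) in which a tamoxifen-inducible Cre under the endothelial Cdh5 promoter deletes exons 5 and 6 of Eng, the gene of the TGF-beta family co-receptor endoglin. Every mouse received tamoxifen, at 8 weeks of age. Cells were taken 2 weeks later (4 WT and 4 KO libraries, each with 2 females and 2 males) or 4 weeks later (5 WT libraries, 2 of them female, and 4 KO libraries, 1 of them female), and the labels do not state whether WT mice carried the Cre. Libraries are named by sex and number (f1, m2), and 1 female WT library at 4 weeks has no number (f).

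As background, blood stem cells are held in the marrow next to vessels and perivascular stroma. Stem cell factor, the product of Kitl, acts on the receptor Kit and keeps stem cells alive, and the chemokine CXCL12 acts through CXCR4 to retain them; both come from endothelium and, at higher levels, from Lepr-expressing reticular stroma. CSF1 sustains macrophages, IL-6 and IL-7 act on myeloid and lymphoid progenitors, pleiotrophin (Ptn) and midkine (Mdk) are related heparin-binding growth factors, and PDGF-B, made by endothelium, recruits pericytes that carry its receptor Pdgfrb.

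Values are counts per 1000000 of a library's total (CPM), and totals ran from 20477400 to 40882715. The 2-week libraries held 10886 to 13583 genes with a count and 22.2% to 29.5% mitochondrial reads, against 15996 to 21235 genes and 4.66% to 8.99% at 4 weeks, so genotypes were compared within a time point. The sorting markers Pecam1 (CD31) and Ly6a (Sca1) and the endothelial gene Cdh5 were present in every library. Ptprc (CD45) was at 2.57 CPM or less except in 2-week KO m2, at 15.6 CPM. Eng was lower in every KO library than in any WT library of its time point, at 225 to 347 against 705 to 1307 CPM at 2 weeks and 274 to 1647 against 2400 to 2735 CPM at 4 weeks. The 4-week KO library m2 kept the most Eng, at 1647 CPM.

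Ranked by level per kilobase of exon, the 8 factors spanned a wide range, with the same leading genes at both times. In 2-week WT, Cxcl12 stood at 152.6 ± 31.8 CPM per kb (SD, n = 4), Kitl at 65.5 ± 10.5 (SD, n = 4) and Pdgfb at 15.0 ± 2.61 (SD, n = 4), and the ranges of these 3 did not overlap. Csf1 (1.06 ± 1.44 CPM per kb, SD, n = 4) and Il6 (1.03 ± 2.06, SD, n = 4) came next and did not differ beyond their spread, and Ptn, Il7 and Mdk were at or near 0. In 4-week WT the order was Cxcl12 (239 ± 97.6 CPM per kb, SD, n = 5), Kitl (98.0 ± 32.7, SD, n = 5), Pdgfb (31.8 ± 7.51, SD, n = 5), Il6 (9.69 ± 5.07, SD, n = 5), Csf1 (6.25 ± 2.21, SD, n = 5), Ptn (1.81 ± 0.65, SD, n = 5), Mdk (1.28 ± 1.58, SD, n = 5) and Il7 (0.0929 ± 0.172, SD, n = 5). At 4 weeks the WT ranges of neighbours did not overlap for Cxcl12 and Kitl (134 to 343 against 56.6 to 132 CPM per kb), Kitl and Pdgfb, Pdgfb and Il6, and Csf1 and Ptn. They overlapped for Il6 and Csf1, Ptn and Mdk, and Mdk and Il7.

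**Figure D1:**
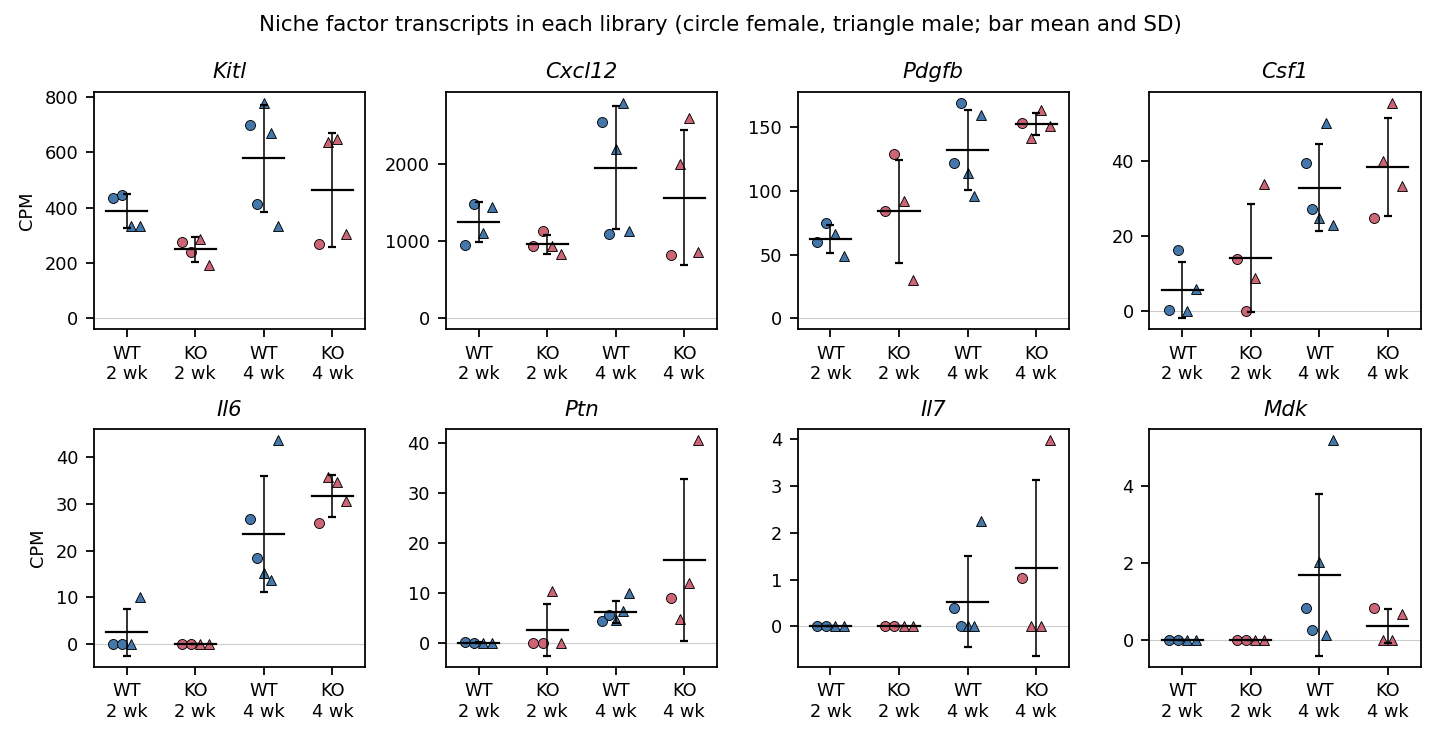
CPM (vertical axis, linear, a separate scale for each gene) of the 8 factors in every library, grouped by genotype and weeks after tamoxifen; circles are females, triangles males, horizontal bars group means and vertical bars SD. Kitl was at 192 to 288.5 CPM in the 4 KO libraries at 2 weeks and at 333 to 447 in the 4 WT libraries, while Il7 and Mdk had 0 counts in all 2-week libraries.

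Kitl was lower in KO endothelium 2 weeks after tamoxifen. Kitl lies on chromosome 10, 100015630 to 100100416, plus strand, with 5911 bases of exon (GENCODE M21, GRCm38). The WT libraries held 435 (f1), 447 (f4), 334 (m2) and 333 (m3) CPM. The KO libraries held 277 (f1), 238 (f4), 288.5 (m2) and 192 (m3) CPM. Every KO library was below every WT library, and the KO mean of 249 ± 43.8 CPM (SD, n = 4) was 0.643 times the WT mean of 387 ± 62.3 (SD, n = 4). The exact two-sided permutation test of log2 CPM gave p = 0.0286, the smallest that 4 against 4 libraries allow, unadjusted and 1 of 12 such tests. The fitted log2 fold change was -0.63 (SE 0.155, 95% interval -0.996 to -0.261), with unadjusted p = 0.00494, rank 41 of 10477 genes, and adjusted p = 1 in edgeR's quasi-likelihood test with Benjamini-Hochberg adjustment, so Kitl did not pass. KO libraries all lay below WT libraries for 1.78% of the genes tested.

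Kitl was the 1 of 4 tested factors with an unadjusted p under 0.05 at 2 weeks, where 2.63% of all genes had one; none of the 8 passed the adjusted threshold, and 0% of all 10477 genes did. DESeq2 called it (log2 fold change -0.64, adjusted p = 0.0127) among 149 genes, 1.42% of those tested; voom did not (-0.59, adjusted p = 0.595). Its adjusted p was 0.595 to 1 under every alternative run except DESeq2, and leaving out 1 library gave -0.77 to -0.56. The females alone gave -0.82 (unadjusted p = 0.019) and the males alone -0.43 (unadjusted p = 0.177); the difference between sexes was not tested.

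Other transcripts also differed between these same libraries. The summed level of 9 neutrophil markers was 4104 CPM in KO m2 and 3150.0 in KO m3, 107 and 238 in the KO females and 22.6 to 110 in WT; without both KO males the Kitl difference was -0.81 (unadjusted p = 0.00612, adjusted p = 0.839). The 10 erythroid markers summed to 278 to 1258 CPM in KO and 61.4 to 253 in WT. The summed level of 10 endothelial markers was also lower in KO, at 4685 to 5249 against 5268 to 6784 CPM, without overlap; their part in the result was not tested. As a percentage of that endothelial sum, Kitl was at 3.90% to 5.50% in KO and 5.88% to 8.25% in WT, without overlap. In bulk samples such as these, fewer cells of a type and less RNA per cell cannot be told apart.

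Cxcl12 had a smaller difference in the same direction at 2 weeks. Cxcl12 lies on chromosome 6, 117168535 to 117181367, plus strand, with 8176 bases of exon. Its WT libraries held 954 (f1), 1482 (f4), 1103 (m2) and 1451 (m3) CPM, and its KO libraries 943 (f1), 1128 (f4), 943 (m2) and 834 (m3). The groups overlapped, since WT f1 was below KO f4. The KO mean was 0.771 times the WT mean, the log2 fold change was -0.38 (SE 0.18, 95% interval -0.80 to 0.05, unadjusted p = 0.0737, adjusted p = 1, edgeR), and the exact permutation test gave p = 0.143. Relative to the endothelial sum the ranges of 18.1% to 25.6% in WT and 16.98% to 24.1% in KO overlapped.

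At 4 weeks neither stem cell factor differed between genotypes beyond the spread between libraries. Kitl was at 698 (f), 415 (f3), 780.4 (m1), 669.5 (m2) and 335 (m3) CPM in WT. It was at 269 (f2), 636 (m1), 649 (m2) and 306 (m3) CPM in KO. Both groups held high and low libraries and overlapped over most of their range. The KO mean was 0.803 times the WT mean, with a log2 fold change of -0.40 (SE 0.334, 95% interval -1.16 to 0.36, unadjusted p = 0.259, adjusted p = 1, edgeR) and an exact permutation p = 0.373.

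Cxcl12 showed the same pattern at 4 weeks. The WT libraries were at 2547 (f), 1096 (f3), 2204 (m1), 2803 (m2) and 1131 (m3) CPM. KO held 818 (f2), 2006 (m1), 2595 (m2) and 855.5 (m3) CPM, and the groups overlapped. The log2 fold change was -0.43 (SE 0.413, 95% interval -1.37 to 0.51, unadjusted p = 0.322, adjusted p = 1, edgeR), with an exact permutation p = 0.46. The KO effect at 4 weeks less that at 2 weeks was 0.29 (SE 0.406, adjusted p = 1) for Kitl and -0.01 (SE 0.50, adjusted p = 1) for Cxcl12.

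Both genes differed at 4 weeks between 2 sets of libraries, each holding both genotypes, that were defined after seeing the data; what divides them was not tested. The first principal component of 8540 genes outside the lists used here, 31% of the variance, put WT f, m1 and m2 with KO m1 and m2 on one side and WT f3 and m3 with KO f2 and m3 on the other. Kitl was at 687 ± 57.4 CPM on the first side (SD, n = 5) and 331 ± 62.0 on the second (SD, n = 4). Cxcl12 was at 2431 ± 320.5 (SD, n = 5) and 975 ± 161 (SD, n = 4). Neither gene overlapped between the sides, while Csf1, Il6, Il7, Ptn, Mdk and Pdgfb did. The sides were drawn from these same libraries, and the share of all genes that divide this way was not counted. The endothelial receptor genes Kdr (1646 to 2179 against 416 to 626 CPM) and Tek (539 to 733.5 against 110 to 272 CPM) and the pericyte marker Rgs5 (1028 to 2336 against 284 to 459 CPM) divided the same way. Pecam1 (2746 to 3143 against 2325 to 2903 CPM) and Cdh5 (583 to 719.5 against 649 to 759 CPM) overlapped between the sides, while the sorting marker Ly6a divided the opposite way without overlap (1930 to 2326 against 2683 to 2990 CPM). Genes with 5 kb of exon or more were higher on the first side by a median log2 ratio of 0.32 (3693 genes) and those under 2 kb lower, at -0.18 (1258 genes); Kitl and Cxcl12 are in the longer class, and the part of transcript length was not tested.

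Within each side the KO values of Kitl and Cxcl12 were again the lower ones on average. So were those of Kdr, Tek, Rgs5, Pecam1 and Cdh5, while Ly6a was lower in KO on the first side only. On the first side Kitl was at 669.5 to 780.4 CPM in 3 WT and 636 to 649 in 2 KO libraries, and on the second at 335 to 415 in 2 WT and 269 to 306 in 2 KO. Cxcl12 was at 2204 to 2803 against 2006 to 2595 CPM on the first side and 1096 to 1131 against 818 to 855.5 on the second. Each side holds only 2 or 3 libraries of a genotype. The share of all genes separated by genotype there was not counted, so no weight is put on overlap or its absence. With a term for the side, chosen after seeing the data, the log2 fold change was -0.25 for Kitl (unadjusted p = 0.0682) and -0.26 for Cxcl12 (unadjusted p = 0.0529), with adjusted p = 1 for both (edgeR). Without KO m2, a library of the first side, the fits without that term gave -0.55 for Kitl and -0.70 for Cxcl12. Without KO f2, a library of the second side, they gave -0.16 and -0.16. Without WT m3 the fit for Kitl gave -0.64.

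**Figure D2:**
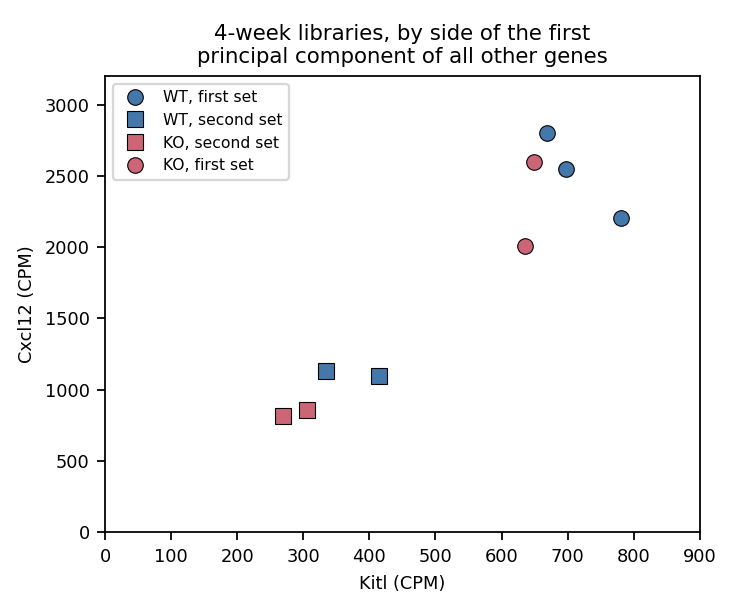
Cxcl12 (vertical axis, CPM) against Kitl (horizontal axis, CPM) in the 9 libraries of 4 weeks, coloured by genotype, with circles for libraries on the first side of the principal component and squares for those on the second. The 5 circles lie at 636 CPM of Kitl and 2006 CPM of Cxcl12 or above, and the 4 squares at 415 and 1131 CPM or below.

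The genes most like each factor over the 9 libraries of 4 weeks, out of 8650 compared with a mean of at least 10 CPM, are given as a description. For Kitl they were Cavin1 (Pearson's r = 0.994), a caveolar coat gene, and Dgkz (0.989). For Cxcl12 they were Eif4g2 (0.991), a translation initiation factor, and Gng12 (0.989). For Csf1 they were Fbxo46 (0.970) and Ahcyl1 (0.932), for Il6 Gnl3 (0.967) and Qsox1 (0.925), and for Ptn the glucose transporter gene Slc2a1 (0.970) and Ubxn1 (0.945). Kitl and Cxcl12 had r = 0.957 with each other. These correlations share the 9 libraries; Kitl and Cxcl12 divided by side without overlap, and Csf1, Il6, Ptn and Pdgfb overlapped between the sides.

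The 250 bases before the RefSeq start of Cxcl12 are shown because it was the most abundant of the factors per kilobase. RefSeq (GRCm38.p6) promoters matched 5 of the 8 factors; that of Cxcl12 is at chr6:117168285-117168534, plus strand. Both strands were searched for CAGAC (a SMAD core motif), GGCGCC (a GC-rich SMAD motif), ACGTG, the NF-kappaB consensus and TATAAA (the TATA box), and capitals mark the 1 match, GGCGCC, which reads the same on both strands.
Cxcl12: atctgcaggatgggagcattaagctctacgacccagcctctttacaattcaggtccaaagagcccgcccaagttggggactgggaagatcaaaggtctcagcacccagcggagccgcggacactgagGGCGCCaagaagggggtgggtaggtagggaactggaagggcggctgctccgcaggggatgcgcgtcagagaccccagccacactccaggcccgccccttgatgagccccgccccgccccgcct
GGCGCC was present in 9.59% of all 32851 promoters of this length, CAGAC in 42.2%, ACGTG in 16.6%, the NF-kappaB consensus in 7.25% and TATAAA in 12.4%. The Cxcl12 stretch held 64.4% G and C, against a median of 52.4% over all promoters. A match is a description of the letters, not a bound site. The stretches of Kitl and Ptn lie partly inside the genes as GENCODE places them, and their matches are not described.

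Among the factors for myeloid and lymphoid cells, Csf1 and Il6 were patchy at 2 weeks and present in every library at 4 weeks, and Il7 stayed near the limit of detection. Csf1, the macrophage growth factor, lies on chromosome 3, 107741048 to 107760469, minus strand. At 2 weeks it was at 0.158 (f1), 16.2 (f4), 0 (m2) and 5.94 (m3) CPM in WT and at 13.9 (f1), 0 (f4), 8.75 (m2) and 34.0 (m3) in KO. Each genotype thus held a library with 0 counts and others with 224 counts or more. The log2 fold change of 1.29 (SE 2.93, 95% interval -5.67 to 8.24, adjusted p = 1, edgeR) bounds little; it was -0.28 without the KO males and ran from 0.47 (without KO m3) to 3.70 (without WT f4) when 1 library was left out. At 4 weeks Csf1 was at 23.1 to 50.3 CPM in WT (median 27.3) and 24.8 to 55.8 in KO (median 36.8), overlapping, with a log2 fold change of 0.18 (SE 0.312, 95% interval -0.53 to 0.89, adjusted p = 1) that ran from 0.0003 (without KO m2) to 0.43 (without WT m2).

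Il6 lies on chromosome 5, 30013114 to 30019981, plus strand. At 2 weeks it had 0 counts in 3 of 4 WT libraries and in all 4 KO libraries, which allows up to 0.0734 to 0.112 CPM in counting error alone, and 378 counts (10.02 CPM) in WT m3. At 4 weeks WT libraries held 26.8 (f), 18.4 (f3), 15.2 (m1), 13.7 (m2) and 43.6 (m3) CPM and KO libraries 25.8 (f2), 35.7 (m1), 34.6 (m2) and 30.5 (m3). The genotypes overlapped at 4 weeks, with KO inside the WT range (log2 fold change 0.40, SE 0.367, 95% interval -0.43 to 1.24, adjusted p = 1, edgeR; exact permutation p = 0.175). Leaving out 1 library moved that fold change from 0.20 (without WT m2) to 0.89 (without WT m3, adjusted p = 0.849).

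Between time points Il6 was the 1 factor of 8 called, in KO. It did not pass the low-count filter at 2 weeks and entered this fit through the 4-week libraries, where it was high, so the call is given as a description. Il6 went from 0 counts to 31.6 ± 4.5 CPM (SD, n = 4), at least 329-fold higher against a floor of 3 counts per library (adjusted p = 0.0391, edgeR), where 6.33% of 15703 genes were called. The call rested on the full set of libraries, since leaving out 1 of them gave adjusted p-values of 0.000937 to 0.0994 and lost it for 12 of 17: each KO library, and WT f, f3, m1 and m3 of 4 weeks. In WT the 4-week libraries lay above all 2-week libraries, including m3, with adjusted p = 0.413 (edgeR). The share of all genes separated this way was not counted. In that comparison 6.92% of genes and none of the 8 factors were called. The KO effect on Il6 at 4 less 2 weeks is also a description only, since WT m3 was the 1 library of 2 weeks with Il6 counts. That effect had unadjusted p = 0.018 and adjusted p = 0.419 (edgeR), where 0.0764% of genes and no factor passed. Time and any difference in library making cannot be told apart, since every 2-week library also held fewer genes and more mitochondrial reads than any 4-week library.

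Early-response transcripts that cell isolation is known to induce were higher in the same libraries. The 12 dissociation stress genes summed to 1319 to 2785 CPM at 2 weeks and 10307 to 17032 at 4 weeks; Fos, Jun, Junb, Egr1, Ier2, Dusp1 and Zfp36 passed in both genotypes, Fosb in WT, and Atf3 in KO; Hspa1b was also called in KO, from at most 1 count per library at 2 weeks, which is a description only. Icam1, an adhesion molecule of activated endothelium, rose as well, from 44.2 ± 18.2 (SD, n = 4) to 362.5 ± 69.2 CPM (SD, n = 5) in WT (adjusted p = 0.00365) and from 43.0 ± 34.2 to 454 ± 89.4 (SD, n = 4 each) in KO (adjusted p = 0.00313). The part of isolation stress in the Il6 level was not tested.

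**Figure D3:**
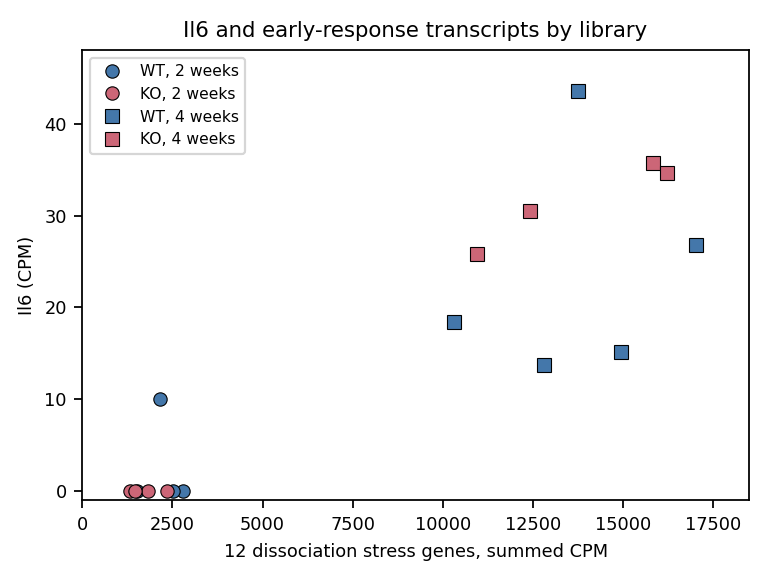
Il6 (vertical axis, CPM) against the summed CPM of 12 dissociation stress genes (horizontal axis) in each of the 17 libraries, coloured by genotype, circles for 2 weeks and squares for 4 weeks. All 8 libraries of 2 weeks lie below 2785 CPM of stress genes and at or below 10.02 CPM of Il6, and all 9 of 4 weeks lie above 10307 and 13.6 CPM.

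The bases before the Il6 start, chr5:30012864-30013113 on the plus strand, are shown because Il6 was the factor called between time points; capitals mark the 1 match to the NF-kappaB consensus, and no other motif searched was found.
Il6: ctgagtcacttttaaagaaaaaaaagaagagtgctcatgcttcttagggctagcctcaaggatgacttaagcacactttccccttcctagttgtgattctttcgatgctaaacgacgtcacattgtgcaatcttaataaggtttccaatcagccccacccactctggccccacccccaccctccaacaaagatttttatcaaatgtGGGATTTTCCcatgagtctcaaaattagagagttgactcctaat
The match begins 44 bases before the start. The Csf1 stretch also held 1 NF-kappaB match, 154 bases before its start.

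Il7, the lymphoid growth factor on chromosome 3, 7569994 to 7613760, minus strand, had 0 counts in all 8 libraries of 2 weeks. At 4 weeks it was at 0.386 (f) and 2.25 (m3) CPM in WT with 0 counts in f3, m1 and m2, and at 1.03 (f2) and 3.98 (m3) CPM in KO with 0 counts in m1 and m2. Its groups overlapped, and its log2 fold change of 1.38 (SE 2.21, adjusted p = 1, edgeR) changed sign without KO m3 (-1.87). An exon of Il7 overlaps Gm16685 on the other strand, so that its few counts are uncertain. Il7r, its receptor chain, had no library above the floor of 3 counts.

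Neither heparin-binding factor passed between genotypes. Ptn (chromosome 6, 36714929 to 36810220, minus strand) had at most 12 counts in 7 of the 8 libraries of 2 weeks and 309 counts (10.4 CPM) in KO m2. At 4 weeks it was at 4.48 (f), 5.53 (f3), 4.70 (m1), 6.46 (m2) and 9.96 (m3) CPM in WT and at 8.99 (f2), 4.85 (m1), 11.9 (m2) and 40.5 (m3) in KO. KO m3 was the high library, and the groups overlapped. The log2 fold change of 1.29 (SE 0.609, 95% interval -0.09 to 2.68, unadjusted p = 0.0637, adjusted p = 1, edgeR) became 0.46 without KO m3, and the exact permutation test gave p = 0.119.

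Mdk (chromosome 2, 91929805 to 91932297, minus strand) had 0 counts at 2 weeks. At 4 weeks it was at 0.830 (f), 0.260 (f3), 2.04 (m1), 0.128 (m2) and 5.19 (m3) CPM in WT and 0.830 (f2), 0 (m1), 0 (m2) and 0.682 (m3) in KO. These ranges overlapped, with a log2 fold change of -2.02 (SE 1.89, 95% interval -6.33 to 2.29, adjusted p = 1, edgeR). It ran from -3.56 without KO m3 to -1.12 without WT m3. The annotation holds a pseudogene, Mdk-ps1, with which reads may have been shared. None of the 8 factors passed at 4 weeks, none had an unadjusted p under 0.05 where 2.77% of 15209 genes did, and 0% of genes passed the adjusted threshold; the median log2 fold change of the 8 was 0.21, and of all genes 0.01.

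Pdgfb, the pericyte-recruiting factor, was higher on average in KO at both times, within the spread. It lies on chromosome 15, 79995874 to 80014977, minus strand. At 2 weeks it was at 60.0 (f1), 74.5 (f4), 66.0 (m2) and 48.7 (m3) CPM in WT and 84.4 (f1), 128.8 (f4), 91.9 (m2) and 30.3 (m3) in KO. Of the KO libraries 3 lay above every WT library and m3 below all of them, and the log2 fold change was 0.38 (SE 0.41, 95% interval -0.60 to 1.35, adjusted p = 1, edgeR; exact permutation p = 0.629). Leaving out 1 library moved the fold change from 0.0966 (without KO m2) to 0.66 (without KO m3), and without KO m3 the exact permutation p was 0.0286, the smallest that those libraries allow. At 4 weeks it was at 122 (f), 169 (f3), 114.0 (m1), 95.8 (m2) and 159.8 (m3) CPM in WT and 154 (f2), 142 (m1), 163 (m2) and 151 (m3) in KO. KO lay inside the WT range, and the log2 fold change was 0.25 (SE 0.197, 95% interval -0.20 to 0.69, adjusted p = 1; exact permutation p = 0.222).

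Pdgfb ran opposite to Kitl over the 4-week libraries (r = -0.618 over 9 libraries, a description). On the first side of the library division it was at 95.8 to 122 CPM in WT and 142 to 163 in KO (log2 fold change 0.47, adjusted p = 1, edgeR). On the second side it ran the other way, at 159.8 to 169 in WT and 151 to 154 in KO (-0.12). Each side holds only 2 or 3 libraries of a genotype, and the share of all genes separated there was not counted. The genes most like it were Socs2 (r = 0.978), a cytokine signalling inhibitor, and 0610037L13Rik (0.965). The 4-week libraries of both genotypes lay above the 2-week libraries of their genotype, with adjusted p = 0.102 in WT and 0.202 in KO (edgeR). The log2 fold changes were 0.82 in WT and 0.68 in KO, where the medians of all genes were 0.42 and 0.49. The share of all genes separated this way was not counted, and time cannot be told apart from library making.

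**Figure D4:**
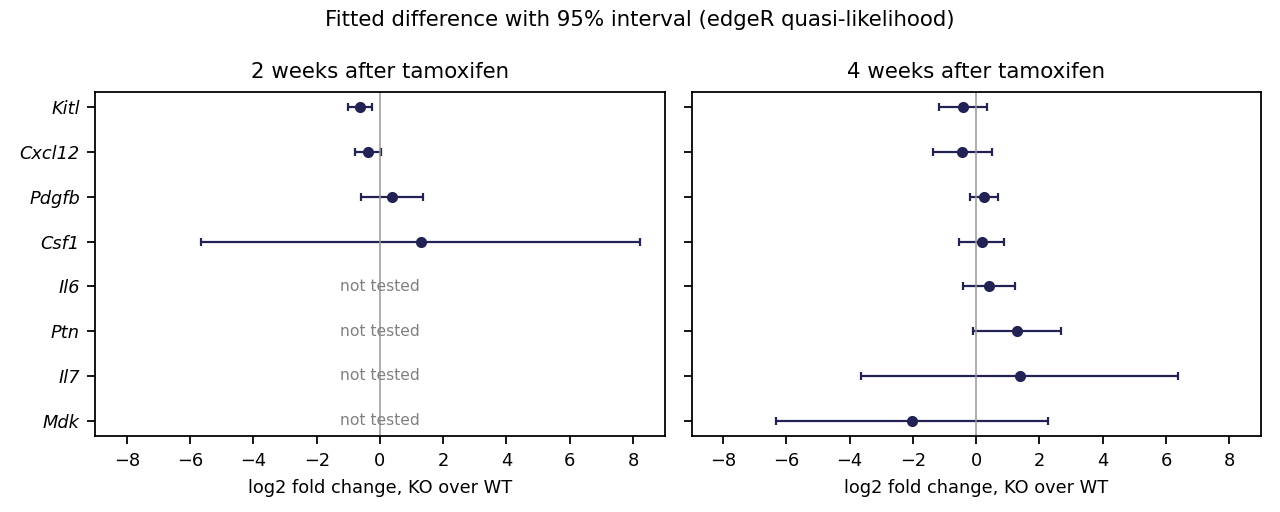
Fitted log2 fold change of KO over WT (horizontal axis) with its 95% interval for each factor, at 2 weeks (left) and 4 weeks (right); genes listed as not tested failed the low-count filter. The interval of Kitl at 2 weeks, -0.996 to -0.261, excludes 0, as no other interval shown does, and no factor passed the adjusted threshold.

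The receptors of these factors were mostly low in the sorted cells. At 4 weeks in WT, Kit was at 19.0 ± 13.0 CPM, Cxcr4 at 3.41 ± 2.36, Csf1r at 6.06 ± 1.78, Il6ra at 6.27 ± 2.86 and Pdgfrb at 29.2 ± 25.4 (SD, n = 5 each), while the shared IL-6 family chain Il6st was at 407 ± 237 and the co-receptor Nrp1 at 1473 ± 208. Of 16 listed receptor genes, 10 were tested at 2 weeks (3 higher and 7 lower in KO, median log2 fold change -0.45, against -0.06 for all genes) and 13 at 4 weeks (6 higher and 7 lower, median -0.07, against 0.01), with 0 called in edgeR. Nrp1 had -0.44 at 4 weeks (SE 0.165, unadjusted p = 0.0255, adjusted p = 1), the 1 receptor gene with an unadjusted p under 0.05 at either time. Nrp1 rose from 2 to 4 weeks in both genotypes (log2 fold change 1.44 in WT, adjusted p = 0.00168, and 1.08 in KO, adjusted p = 0.0145), where the median of all genes was 0.42 and 0.49.

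Genes that release or hold these ligands showed no call between genotypes. Of 13 listed, 6 were tested at 2 weeks (1 higher, 5 lower) and 12 at 4 weeks (6 higher, 6 lower), and none had an unadjusted p under 0.05. Between time points Hspg2, which encodes the heparan sulfate proteoglycan perlecan, rose in WT (1.36, adjusted p = 0.023) and KO (1.34, adjusted p = 0.0324), and Mmp14, a membrane metalloproteinase, went from at most 0.123 CPM to 6.30 to 31.6 in WT; it was kept in the fit through libraries where it is present, so its call is given as a description. Of 17 related ligands, 6 were tested at 2 weeks (3 higher, 3 lower) and 12 at 4 weeks (5 higher, 7 lower), and 1 had an unadjusted p under 0.05, the chemokine Cxcl10, at 4 weeks at 11.4 to 32.3 CPM in WT and 16.0 to 67.2 in KO (log2 fold change 1.06, SE 0.465, unadjusted p = 0.0498, adjusted p = 1). Between time points Cxcl10 was called in WT and the IL-6 family ligand Clcf1 in both genotypes, each with 0 counts in the 2-week libraries of that genotype, so these calls too are descriptions.

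Of 30 other endothelial niche factors, 14 were tested at 2 weeks (4 higher, 10 lower) and 23 at 4 weeks (12 higher, 11 lower), and none passed. At 4 weeks the Tie2 ligand Angpt2 lay between 28.5 and 62.0 CPM in WT and between 120 and 191.5 CPM in KO, without overlap (log2 fold change 1.52, SE 0.273, unadjusted p = 0.000398, adjusted p = 1, edgeR). The share of all genes separated this way at 4 weeks was not counted. At 2 weeks the genotypes overlapped for Angpt2, at 0 to 3.34 CPM in WT and 0 to 69.2 in KO. The Notch ligand Dll1 was at 76.2 to 145.6 CPM in WT and 63.0 to 107.7 in KO (-0.63, SE 0.187, unadjusted p = 0.0087, adjusted p = 1), with overlap. From 2 to 4 weeks Dll4 (1.70, adjusted p = 0.0281) and Igfbp3 (0.97, adjusted p = 0.0381) rose in WT. Bmp2 and Ang were called in KO with 0 counts in all 4 of its 2-week libraries, which is a description only.

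Stromal and mural transcripts were present beside these factors. The 10 pericyte and smooth muscle markers summed to 934 to 1805 CPM in WT against 943 to 1179 in KO at 2 weeks, and to 805 to 3132 against 885.0 to 2263 at 4 weeks, with the genotypes overlapping; Rgs5 alone averaged 1124 CPM in 2-week WT and 1145 in 4-week WT. Lepr, the defining gene of the reticular stroma that makes most Kitl and Cxcl12, lay between 17.8 and 62.6 CPM in 4-week WT and between 14.8 and 41.4 CPM in 4-week KO (log2 fold change -0.90, SE 0.373, unadjusted p = 0.04, adjusted p = 1, edgeR). At 2 weeks it was at 0.0790 to 11.96 CPM in WT and 0.0749 to 42.6 in KO. The 16 stromal markers together were between 435 and 702 CPM in all 2-week libraries and between 1177 and 1861 in all 4-week libraries, with the genotypes overlapping, but Lpl alone averaged 424 and 1158 CPM of that sum in WT and 376 and 1399 in KO at 2 and 4 weeks. Of the 15 stromal markers tested at 4 weeks, 6 were higher and 9 lower in KO, with a median log2 fold change of -0.33 against 0.01 for all genes, and none passed. Col1a1 (-1.25, SE 0.475) and the pericyte gene Cspg4 (-3.49, SE 0.942) were the other genes of these lists with an unadjusted p under 0.05 at 4 weeks. The endothelial receptor gene Tie1 had -0.81 at 2 weeks (SE 0.309, unadjusted p = 0.035) and -0.52 at 4 weeks (SE 0.188, unadjusted p = 0.0218), with adjusted p = 1, and at 2 weeks Esam had -0.42 (unadjusted p = 0.0252) and Sox17 -0.73 (unadjusted p = 0.0207), with adjusted p = 1 for both in edgeR. The part of other cell types in the levels of the 8 factors was not tested.

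Markers of vessel subtypes and blood cells gave few calls, none of them between genotypes. At 4 weeks the venous and sinusoidal regulator Nr2f2 (0.93, SE 0.287, unadjusted p = 0.0107) and Adamts5 (-0.60, SE 0.247, unadjusted p = 0.0388) had the smallest p-values among 12 sinusoidal markers. The heme synthesis gene Alas2 (1.99, SE 0.647) and the globin gene Hba-a2 (1.62, SE 0.635) were on the higher side in KO at 4 weeks, and Hbb-bs (2.12, SE 0.484) and Hba-a2 (2.24, SE 0.728) at 2 weeks, with adjusted p = 1 in edgeR. The neutrophil genes S100a8 (4.11) and Camp (4.99, SE 1.3) and the leukocyte gene Rac2 had adjusted p = 1 at 2 weeks too. Between time points the endothelial genes Pecam1, Cdh5, Emcn and Esam rose in both genotypes (adjusted p of at most 0.0269), with Pecam1 up by 1.17 in WT and 1.18 in KO, and Sox17 rose in KO (1.04, adjusted p = 0.00571). Lpl rose in both, and S100a8 fell in KO (-4.78, adjusted p = 0.00783). Slc4a1 and Rac2 in WT, and Foxc1 and C1qb in KO, were also called, as was C1qb for the difference of KO effects; each had 0 counts in all 2-week libraries of that genotype, so these calls are descriptions.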

How the data were processed

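Libraries were sorted endothelial cells sequenced with SmartSeq2. Each library's deposited file gives unnormalized read counts by Ensembl gene; per the submitters' processing notes cutadapt, STAR and HTSeq 0.6.1p1 were used, with builds GRCm38 and mm10, and strand handling is not given in the sources used here. Symbols and positions came from GENCODE M21 (GRCm38), which matched 49326 of 49585 identifiers.

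Genes were kept by filterByExpr, scaled by TMM and tested with edgeR 4.0.16 (quasi-likelihood, robust, R 4.3.3), with sex as a term, per time point or over all 17 libraries for comparisons between times. P-values were adjusted by Benjamini-Hochberg over all genes tested, with a threshold of 0.05. A two-sided exact permutation test on log2 CPM (prior count 2) was run for the 12 factor and time combinations that passed the filter. Alternatives were DESeq2 1.42.0, voom (limma 3.58.1), other scalings and filters, no sex term, a replicate block and leaving out each library. Scripts were tested on simulated data.

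Members and lists were chosen with earlier results of these data known. The rule named all members, Eng, listed genes past the adjusted threshold and up to 2 per list and time point with the smallest unadjusted p under 0.05, plus the 2 genes most correlated with each factor detected in all 4-week libraries. The labels do not say that libraries came from separate animals, so p-values measure the spread between these libraries. Same-numbered libraries did not deviate together (correlations of -0.0235 to 0.0498 at 2 weeks and 0.0521 to 0.161 at 4 weeks). Libraries of 20477400 to 40882715 counts without molecular identifiers put the floor of 3 counts at 0.0734 to 0.147 CPM; the floors cover counting error only, and the 95% intervals of fold changes include the spread between libraries.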

Additional observations from a re-analysis of the deposited data

Results flagged for a closer look

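Of 27 groups of 4 or 5 libraries examined over the 8 factors, 3 held a library whose gap to the nearest other exceeded Dixon's 95% critical value. Chance flags about 1 in 20 groups of normally spread values; that rate does not hold for groups with most libraries at or near 0 counts, such as the 3 here. Il6 in 2-week WT was at 10.02 CPM (378 counts) in m3 and had 0 counts in the other 3 libraries. Il7 in 4-week WT was at 2.25 CPM (55 counts) in m3, with a gap of 0.828 of the group's range. Ptn in 2-week KO was at 10.4 CPM (309 counts) in m2, with a gap of 0.989 of the range; m2 also held the most neutrophil transcripts, and the part of other cells was not tested.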

How the results depend on the processing

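For Kitl and Cxcl12 the sign of KO against WT at 2 and 4 weeks held under every alternative run. The count of factors called between genotypes was 0 at both times and became 1 with DESeq2 at 2 weeks (Kitl). In the difference of KO effects it became 1 with DESeq2 (Il6), where 8.3% of all genes were called. For WT between times it was 0 and became 1 with at least 10 counts in every library (Pdgfb, 12.8% of all genes called). It became 3 with DESeq2 (Ptn, Mdk and Pdgfb, 18.7% called) and 1 with voom (Il6, 8.86% called). It ranged from 0 to 1 when 1 library was left out: Il6 without 2-week WT m3 (5.48% called), Ptn without 2-week KO m2 (7.38%) and Pdgfb without 2-week KO m3 (7.4%). For KO between times it was 1 and became 0 with at least 10 counts in every library, where Il6 is not tested. It ranged from 0 to 1 when 1 library was left out (without 2-week KO m2 the call was Ptn, with 6.5% called). Il6, Ptn and Mdk did not pass the low-count filter at 2 weeks and entered these fits through the 4-week libraries, so their calls are descriptions. Over all genes, edgeR called 0 at 2 weeks (276 at an unadjusted p under 0.05; DESeq2 149, voom 12), 0 at 4 weeks (422 unadjusted; DESeq2 17, voom 0) and 12 for the difference of effects (DESeq2 1303, voom 5, no filter 6, at least 10 counts 0). Between times it called 1086 in WT and 994 in KO, against 2938 and 2873 with DESeq2, 580 and 567 without a filter, and 639 and 626 with at least 10 counts. When 1 library was left out the calls ran from 588 to 1261 in WT, under 1086 by over 1.5 times without f, f3 or m3 of 4-week WT, f2, m1 or m3 of 4-week KO, or f1 or m2 of 2-week WT. They ran from 504 to 1222 in KO, lowest without f2, m1 or m3 of 4-week KO. For the difference of effects they ran from 7 (without f, m2 or m3 of 4-week WT, or m1 or m3 of 4-week KO) to 51 (without 2-week KO m2), with 20 or more without any 2-week library. With the replicate block Kitl had -0.64 at 2 weeks and -0.39 at 4 weeks, and Cxcl12 -0.36 and -0.46, with no factor called; the numbers do not pair the libraries.

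The settings by sex, without the KO males and by side of the principal component were chosen after seeing the data. Signs turned for Csf1 at 2 weeks without the KO males (-0.28) and in females alone (-0.31). At 4 weeks they turned for Il7 with the side of the principal component as a term (-0.34), with that term and no sex term (-0.91) and when 1 library was left out (-1.87 to 1.82 in the fit, and -0.22 to 1.76 in mean log2 CPM), and on the second side alone for Il6 (-0.12) and Pdgfb (-0.12). The first side alone gave 0.93 for Il6 and 0.47 for Pdgfb. The difference of KO effects turned for Cxcl12 with voom (0.15), without the sex term (0.0549) and when 1 library was left out (-0.31 to 0.23), and for Pdgfb when 1 library was left out (-0.43 to 0.0671). Cxcl12 in KO between times ran from -0.0017 to 0.54 when 1 library was left out. The cause of these changes was not tested. At these depths a factor under the floor of 3 counts cannot be told from absent. This limits Il7, Mdk and, at 2 weeks, Il6, Ptn and, in 1 library of each genotype, Csf1.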
